A study of Mus musculus with 6 samples.

Results

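The helper cytokine genes are Il21, Il4, Il2, Il10, Ifng, Il17a and Il13, chosen by name with earlier results of these data known. They are 7 of 38216 gene symbols measured by RNA sequencing in spleen CD4+ T cells of C57BL/6 mice on postnatal day 28. All mice carried an IL21-VFP reporter, in which the fluorescent protein VFP reports transcription of Il21, and the labels do not say how the reporter was built. Cells were sorted into 3 pools of 2 libraries each. The pool N had neither VFP nor the costimulatory receptor ICOS on its surface. The pool ACT had ICOS without VFP, and the pool ACT IL21 had both. Every pool came from reporter mice, so no pool stands for mice without the reporter, and the sorted cells of a pool are a mixture of CD4+ subsets.

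Helper T cells act on other cells largely through the cytokines they secrete. IL-21 and IL-4 are the main signals by which follicular helper T cells drive B cell growth, class switching and plasma cell formation. IFN-gamma, the type 1 cytokine, activates macrophages, IL-13 is a type 2 cytokine that acts on epithelium and on macrophages, and IL-17A recruits neutrophils. IL-2 supports the growth of T cells and the survival of regulatory T cells, and IL-10 restrains antigen-presenting cells. Resting naive T cells carry little RNA of these genes, and IL-2 is made soon after receptor stimulation. IL-2, IL-4 and IL-21 signal through receptors that share the common gamma chain.

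All of the genes are protein-coding, and 4 of them lie in pairs (GENCODE M21, GRCm38). Il21 (chromosome 3, 37222759 to 37232636, minus strand) and Il2 (chromosome 3, 37120523 to 37125959, minus strand) lie 96.8 kb apart. Il4 (chromosome 11, 53602982 to 53618669, minus strand) and Il13 (chromosome 11, 53631324 to 53634702, minus strand) lie 12.7 kb apart. Il10 (chromosome 1, 131019845 to 131024974, plus strand), Il17a (chromosome 1, 20730905 to 20734496, plus strand) and Ifng (chromosome 10, 118441046 to 118445892, plus strand) stand apart from the other members.

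The promoters of the 4 members with the most to compare are shown because each is a short stretch through which T cell receptor signals reach the gene. They are the 250 bases before the RefSeq start site (GRCm38.p6), written 5′ to 3′ on the gene's strand. Il21 is at chr3:37232637-37232886 (minus strand), Il4 at chr11:53618666-53618915 (minus), Il2 at chr3:37125955-37126204 (minus) and Ifng at chr10:118440796-118441045 (plus). Capitals mark GGAAA on either strand, the core bound by NFAT factors, which calcium signals bring into the nucleus.
Il21 promoter: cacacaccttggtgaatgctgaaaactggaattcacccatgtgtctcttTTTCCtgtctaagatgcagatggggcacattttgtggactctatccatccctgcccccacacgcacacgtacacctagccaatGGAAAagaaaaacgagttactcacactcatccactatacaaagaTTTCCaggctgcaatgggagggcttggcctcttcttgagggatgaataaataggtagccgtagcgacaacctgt
Il4 promoter: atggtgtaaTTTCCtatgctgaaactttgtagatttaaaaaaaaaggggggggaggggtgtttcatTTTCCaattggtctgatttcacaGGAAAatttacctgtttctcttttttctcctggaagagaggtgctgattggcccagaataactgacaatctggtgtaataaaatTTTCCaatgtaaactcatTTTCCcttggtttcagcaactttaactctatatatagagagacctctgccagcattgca
Il2 promoter: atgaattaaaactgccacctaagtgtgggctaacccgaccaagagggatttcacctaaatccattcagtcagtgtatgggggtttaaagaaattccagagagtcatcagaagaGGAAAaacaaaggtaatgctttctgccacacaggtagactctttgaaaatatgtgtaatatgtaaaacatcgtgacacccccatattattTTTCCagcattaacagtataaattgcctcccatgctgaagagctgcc
Ifng promoter: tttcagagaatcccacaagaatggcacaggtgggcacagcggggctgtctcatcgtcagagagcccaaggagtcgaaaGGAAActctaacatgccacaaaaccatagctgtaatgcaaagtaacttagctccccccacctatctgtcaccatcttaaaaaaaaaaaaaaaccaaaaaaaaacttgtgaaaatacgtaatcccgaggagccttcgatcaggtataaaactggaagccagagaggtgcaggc
GGAAA was found 5 times before Il4, 3 times before Il21, 2 times before Il2 and 1 time before Ifng. Of the other members with an entry, Il13 had 4 matches and Il17a had 0. At least 1 match was present in 55.6% of 32851 windows of the same length before RefSeq start sites, at least 3 in 6.39%, at least 4 in 1.59% and at least 5 in 0.39%. TGCTGA, part of the site bound by MAF factors, was found 3 times before Il4 and 1 time each before Il21, Il2, Il13 and Il17a, and in 16.1% of the windows. TATAAA was found before Il2, Ifng, Il17a and Il13, where it began 29 to 31 bases before the start, and in 12.4% of the windows. Il13 also held TATAAA on the opposite strand, overlapping the first. The AP-1 letters TGANTCA (6.75% of the windows) were found before Il17a, and the STAT letters TTCNNNGAA (7.02%) before Ifng. None of the GGAAA matches overlapped a match of another motif. These matches are letters in a window and were not tested as binding sites.

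The libraries carried the identity their labels give. Cd3e, a chain of the T cell receptor complex, was between 1275 and 2132 TPM in all 6 libraries, and Cd4 between 236 and 567 TPM, while Cd8a was at or under 0.36 TPM. Cd8b1, the other CD8 chain gene, was at 26.68 and 18.73 TPM in N and at 3.41 to 9.8 TPM in the ICOS+ libraries. TPM is an abundance scaled by gene length and to the same total in each library, so levels can be compared between genes. Icos, which set a gate, was at 31.9 and 35.7 TPM in N and at 185 to 254 TPM in the ICOS+ libraries. The read depth behind the TPM is unknown, and a gene at 0 is described as listed at 0. Differences were tested with limma on log2(TPM + 1) across 13311 genes, with Benjamini-Hochberg adjustment over all of them and a threshold of 0.05. Whether a pool's 2 libraries stem from different animals is not in the labels, so p-values here reflect library-to-library spread alone, possibly technical. In sorted pools, fewer cells with a transcript and less of it per cell cannot be told apart.

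Il21 was listed at 0 in both N libraries. The ACT libraries had 0 and 1.26 TPM, and the ACT IL21 libraries 44.48 and 51.87 TPM. Only the reporter-positive pool therefore had more than 2 TPM, and because the reporter set the gate this is a check of the sort and not a result. In ACT IL21, Il21 was higher than 72.4% and 75.8% of the genes at 1 TPM or more.

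**Figure D1:**
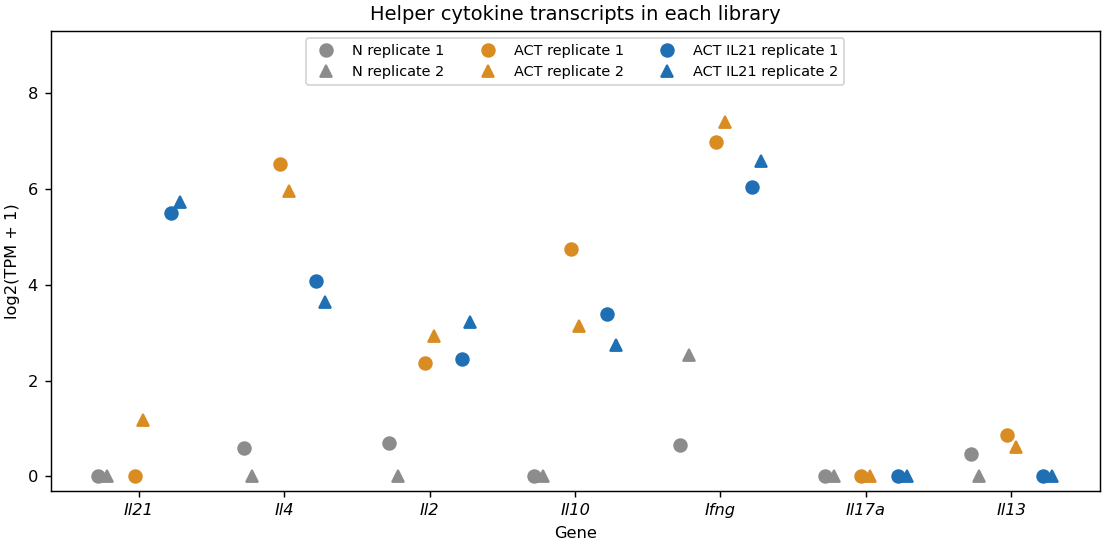
The level of each helper cytokine gene, as log2(TPM + 1), in each of the 6 libraries, with circles for replicate 1 and triangles for replicate 2 and colours for the N, ACT and ACT IL21 pools. Il4 and Ifng are highest in the ACT libraries, Il21 in the ACT IL21 libraries, and Il17a is at 0 throughout.

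Il4 was measured at 0.51 and 0 TPM in N, 90.68 and 61.35 TPM in ACT, and 15.82 and 11.49 TPM in ACT IL21. Both ACT libraries lay above both N libraries, as was so for 25.2% of all genes tested. Both ACT IL21 libraries lay above N, as for 31.5% of genes, and below ACT, as for 17.3%. The ICOS+ cells without VFP held the most. Relative to N, Il4 rose in ACT (difference in log2(TPM + 1) 5.94 ± 0.38 SE, adjusted p = 0.000164) and in ACT IL21 (3.56 ± 0.38, adjusted p = 0.00234). It was lower in ACT IL21 than in ACT (-2.38 ± 0.38, adjusted p = 0.0239), with a mean of 13.7 ± 3.06 TPM against 76 ± 20.7 TPM (SD, n = 2). In ACT the call held whichever library was dropped. The rise in ACT IL21 lost its call without either ACT IL21 library (adjusted p = 0.0654 and 0.0566). The difference between the ICOS+ pools kept its direction but no longer passed once any 1 library was dropped (differences of -2.66 to -2.1, adjusted p of 0.061 to 0.227).

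Il13, the neighbour of Il4, was low in all pools. It was at 0.39 and 0 TPM in N, at 0.81 and 0.52 TPM in ACT, and listed at 0 in both ACT IL21 libraries. No library reached 1 TPM, so Il13 did not pass the filter on low values and was not tested. The ACT libraries therefore held Il4 at 61.35 TPM or more beside Il13 at 0.81 TPM or less, from genes 12.7 kb apart.

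Ifng was the most abundant of the 7 genes in every ACT and ACT IL21 library. It was at 0.58 and 4.83 TPM in N, 126.3 and 168.43 TPM in ACT, and 65.53 and 94.58 TPM in ACT IL21. Ifng rose against N in ACT (5.6 ± 0.54, adjusted p = 0.00111) and in ACT IL21 (4.72 ± 0.54, adjusted p = 0.00317). The rise in ACT held whichever library was dropped, and that in ACT IL21 lost its call without ACT IL21 replicate 1 (adjusted p = 0.0721) or replicate 2 (0.0924). Both ACT IL21 libraries lay below both ACT libraries, as was so for 17.3% of all genes tested. That difference did not pass (-0.88, 95% interval -2.13 to 0.37, adjusted p = 0.503). Ifng was higher than 90.9% and 93.4% of the genes at 1 TPM or more in ACT, and than 80.9% and 87.2% in ACT IL21.

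Il2 was low in all libraries. It was at 0.63 and 0 TPM in N, 4.18 and 6.65 TPM in ACT, and 4.51 and 8.31 TPM in ACT IL21. The ICOS+ pools overlapped each other. Both lay above N, as was so for 25.2% (ACT) and 31.5% (ACT IL21) of all genes tested. Il2 rose against N in ACT (2.3 ± 0.5, adjusted p = 0.0387) and in ACT IL21 (2.49 ± 0.5, adjusted p = 0.0301). The call in ACT ended whichever library was dropped (adjusted p of 0.0749 to 0.3), and that in ACT IL21 without either N library (0.13 and 0.277) or either ACT IL21 library (0.119 and 0.214). With a pseudocount of 0.1 TPM the differences were 4.31 and 4.53 and neither passed (adjusted p = 0.0613 and 0.0554). Between the ICOS+ pools the difference was 0.19 (95% interval -0.97 to 1.34, adjusted p = 0.901). In the ACT IL21 libraries, where Il2 was at 4.51 and 8.31 TPM, Il21, 96.8 kb away, was at 44.48 and 51.87 TPM.

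Il10 was listed at 0 in both N libraries. The ACT libraries had 25.87 and 7.86 TPM and the ACT IL21 libraries 9.51 and 5.67 TPM, so that the ICOS+ pools overlapped and ACT replicate 1 stood highest. No fold is given against a pool at 0. The limma test of ACT against N passed (adjusted p = 0.00734), as did that of ACT IL21 against N (adjusted p = 0.0241). The first lost its call without either N library (adjusted p = 0.0916 and 0.091), and the second without either N library (0.176 and 0.197) or either ACT IL21 library (0.21 and 0.151). Between the ICOS+ pools the difference was -0.88 (95% interval -2.23 to 0.46, adjusted p = 0.535), and it was -0.08 without ACT replicate 1.

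Il17a was listed at 0 in all 6 libraries. Il17f, which lies 42.6 kb from Il17a, was at 4.16 TPM in ACT IL21 replicate 1 and at 0.83 TPM or less in the other libraries.

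The order of levels differed between the ICOS+ pools mainly in the place of Il21, which set the gate. With Il21 set aside, Ifng and then Il4 stood first in both of these pools. In both ACT libraries it was Ifng, Il4, Il10, Il2, with Il21 and Il13 at 1.26 TPM or less. In both ACT IL21 libraries it was Ifng, Il21, Il4, and then Il10 and Il2, whose order differed between the libraries. The 7 genes summed to 2.11 and 4.83 TPM in N, 247.84 and 246.07 TPM in ACT, and 139.85 and 171.92 TPM in ACT IL21. Il4 made up 36.6% and 24.9% of that sum in ACT and 11.3% and 6.68% in ACT IL21. Il21 made up 31.8% and 30.2% in ACT IL21. This share of the gate gene lowers the shares of the other genes in ACT IL21, so the composition is in part fixed by the sort. The ratio of Ifng to Il4 was 1.39 and 2.75 in ACT and 4.14 and 8.23 in ACT IL21. Within ACT IL21, Il4 stood at 0.356 and 0.222 of the level of Il21.

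**Figure D2:**
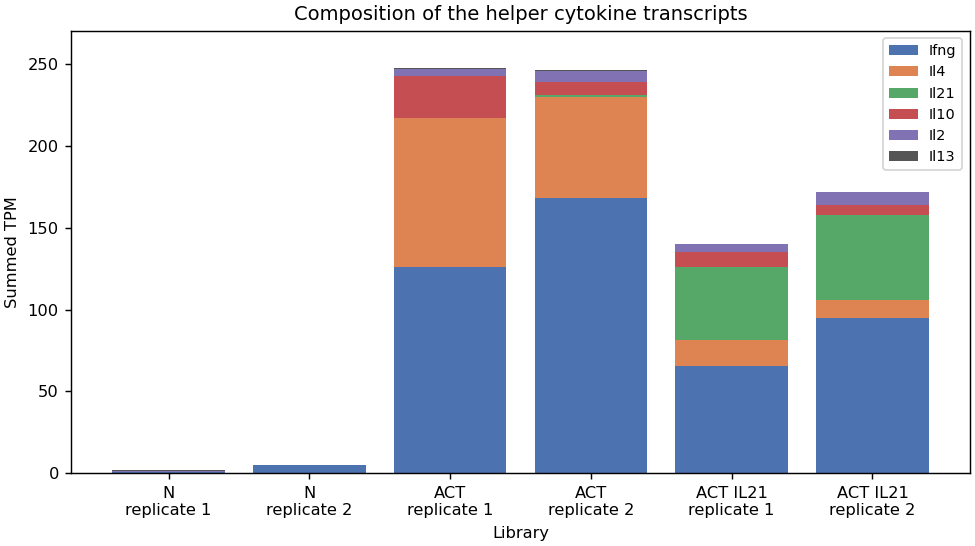
The summed TPM of the helper cytokine genes in each of the 6 libraries, with each bar divided by gene; Il17a is at 0 and has no segment. The ACT bars reach 247.84 and 246.07 TPM and are mostly Ifng and Il4. The ACT IL21 bars reach 139.85 and 171.92 TPM, with less Il4 and with Il21, which set the gate.

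Counted together, 5 of the 7 members passed the filter of 1 TPM in at least 2 libraries, and 4 of these were tested, since Il21 set the gate. All 4 were higher in ACT than in N, where 5.58% of all genes were called and 4.15% were called higher. The same 4 were higher in ACT IL21 than in N, where 5.09% were called and 3.82% were called higher. These counts support nothing by themselves, because all 4 passed the filter through the ICOS+ libraries. Both comparisons use the same N libraries. Between ACT IL21 and ACT, 1 of the 4, Il4, was called, and it was lower, where 1.95% of genes were called and 1.15% were called lower.

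**Figure D3:**
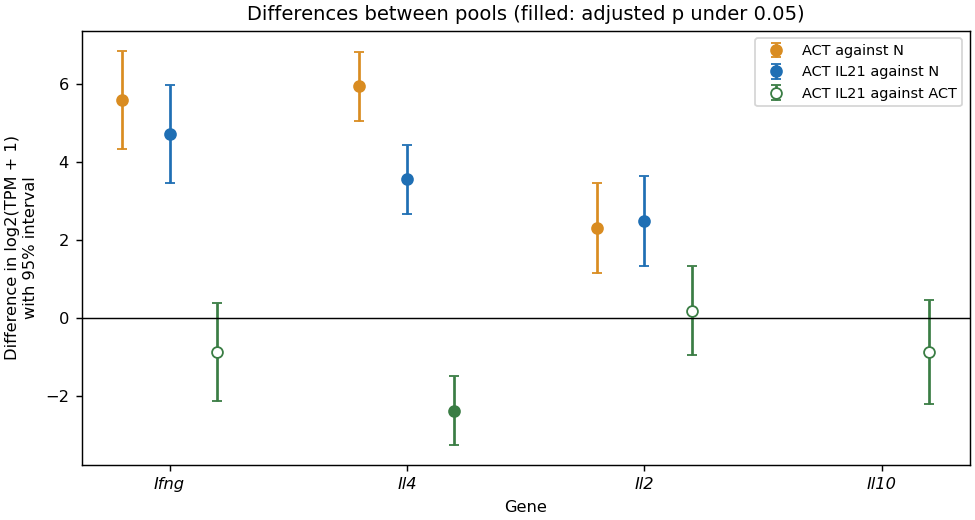
Differences in log2(TPM + 1) with 95% intervals for Ifng, Il4, Il2 and Il10 in the 3 comparisons, with filled points for an adjusted p under 0.05. Il10 is drawn only between the ICOS+ pools because it is listed at 0 in N. Among the comparisons of the ICOS+ pools, the filled point is that of Il4, at -2.38.

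The receptor genes for these cytokines changed less uniformly. Of 13 such genes 10 were tested. In ACT against N, 2 rose and 1 fell (median difference 0.10, against 0.02 over all genes tested, of which 4.15% rose and 1.43% fell). Il2rb, the signalling chain for IL-2, rose from 55.48 and 57.53 TPM to 710.17 and 399.36 TPM (3.21, adjusted p = 0.00045). Il2ra, the chain that gives the IL-2 receptor its high affinity, rose from 46.08 and 64.23 TPM to 123.51 and 125.37 TPM (1.18, adjusted p = 0.0233). Ifngr2, the signalling chain of the IFN-gamma receptor, fell from 27.96 and 24.41 TPM to 8.5 and 6.9 TPM (-1.65, adjusted p = 0.0302). Il2rb kept its call with each library left out, and Il2ra and Ifngr2 lost theirs whichever library was dropped (adjusted p up to 0.221 and 0.284).

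In ACT IL21 against N, 2 receptor genes rose and 3 fell (median -0.19, against 0.10 over all genes, of which 3.82% rose and 1.26% fell). Il2ra was at 7.16 and 8.48 TPM in ACT IL21, below N (-2.66, adjusted p = 0.000816) and below ACT (-3.83, adjusted p = 0.0019). Ifngr2 was at 3.05 and 4.25 TPM (-2.56 against N, adjusted p = 0.0054), and Il4ra, the ligand-binding chain for IL-4, fell from 57.71 and 47.97 TPM to 11.98 and 16.68 TPM (-1.82, adjusted p = 0.00637). Il10ra, the ligand-binding chain for IL-10, rose from 7.98 and 5.71 TPM to 20.33 and 22.16 TPM (1.52, adjusted p = 0.0296). Il2rb was at 194.57 and 208.65 TPM, above N (1.82, adjusted p = 0.00635) and below ACT (-1.4, adjusted p = 0.0333). Against ACT, 3 receptor genes fell and none rose (median -0.63, against 0.08 over all genes, of which 0.796% rose and 1.15% fell). The remaining one was Ifngr1, the ligand-binding chain for IFN-gamma, at 86.67 and 72.4 TPM against 176.5 and 152.84 TPM (-1.04, adjusted p = 0.0239). The fall of Il2ra against N passed with each library left out, and that against ACT lost its call without ACT IL21 replicate 1 (adjusted p = 0.0621). The other calls here ended without 4 to 6 of the single libraries, both ACT IL21 libraries among them (adjusted p up to 0.27).

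Il21r, the receptor of IL-21, was at 37.63 and 28.75 TPM in N, 30.77 and 23.7 TPM in ACT, and 25.65 and 31.04 TPM in ACT IL21, and the pools overlapped. Il2rg, the common gamma chain, was the most abundant receptor gene, at 691.8 to 949.73 TPM over the 6 libraries. Il17rc, Il13ra1 and Il13ra2, chains for IL-17 and IL-13, stayed at or under 0.72 TPM. Il17ra, another chain for IL-17, was at 72.02 to 124.72 TPM over the 6 libraries and was not called in any comparison.

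**Figure D4:**
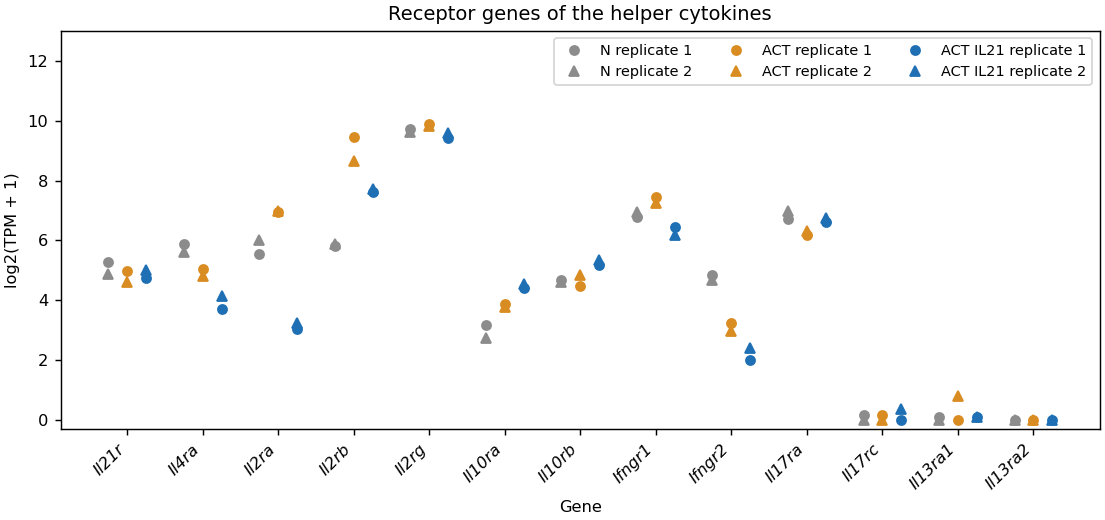
The level of each receptor gene, as log2(TPM + 1), in each library, with circles for replicate 1 and triangles for replicate 2. Il2ra is highest in ACT, at 123.51 and 125.37 TPM, and lowest in ACT IL21, at 7.16 and 8.48 TPM.

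Of 25 genes for transcription factors known to act on these cytokine genes, 12 rose in ACT against N, none fell and 13 were not called (median 0.79, against 0.02 over all genes, of which 4.15% rose). In ACT IL21 against N, 11 rose, none fell and 14 were not called (median 0.81, against 0.10 over all genes, of which 3.82% rose). Maf, which activates Il4, Il21 and Il10, was at 1.24 and 1.64 TPM in N, 63.92 and 62.79 TPM in ACT, and 100.35 and 107.29 TPM in ACT IL21 (4.73 and 5.43 against N, adjusted p = 3.93e-05 and 4.7e-05). Bhlhe40, a repressor of Il10, was at 4.49 and 5.94 TPM in N, 194.1 and 164.63 TPM in ACT, and 62.34 and 75.8 TPM in ACT IL21 (4.86 and 3.5, adjusted p = 3.44e-05 and 0.00022). Tbx21, which encodes the type 1 factor T-bet that activates Ifng, had no TPM above 0 in N, 28.5 and 13.87 TPM in ACT, and 4.23 and 6.54 TPM in ACT IL21 (adjusted p = 0.00179 and 0.0193 against N). Rora, which encodes a nuclear receptor that acts on Il17a, rose by 3.58 and 2.51 (adjusted p = 0.000101 and 0.000816). Nfatc1, an NFAT factor gene, rose by 1.13 in ACT and by 1.83 in ACT IL21 (adjusted p = 0.00829 and 0.00129). Its difference between the ICOS+ pools did not pass (0.7, adjusted p = 0.096). Maf, Bhlhe40 and Rora passed in both comparisons with each library left out, and Tbx21 in ACT. The call of Nfatc1 in ACT IL21 ended without ACT IL21 replicate 2, and that in ACT without either N library or ACT replicate 1.

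Between the ICOS+ pools, 1 of the 25 factors rose and 2 fell (median 0.05, against 0.08 over all genes, of which 0.796% rose and 1.15% fell). Bcl6, the lineage factor of follicular helper cells, was at 55.65 and 48.69 TPM in ACT IL21 against 24.02 and 19.9 TPM in ACT (1.21, adjusted p = 0.0342). Prdm1, which encodes Blimp-1, an activator of Il10, was at 10.51 and 13.29 TPM against 38.64 and 45.86 TPM (-1.75, adjusted p = 0.0215). Bhlhe40 also fell (-1.37, adjusted p = 0.0239). The values of Maf (0.7, adjusted p = 0.196) and of Gata3, the type 2 factor (-0.19, adjusted p = 0.761), did not pass. The calls of Bcl6, Prdm1 and Bhlhe40 between these pools ended whichever library was dropped (adjusted p up to 0.244).

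Among 22 other cytokine genes of T cells, 11 were tested and 7 were listed at 0 in all libraries, Il3, Il6, Il9, Il24, Il25, Il27 and Il31. In ACT against N, 3 rose and none fell (median 0.93, against 0.02 over all genes, of which 4.15% rose). Csf2, which encodes the growth factor GM-CSF, was at 0.31 and 0 TPM in N, 9.79 and 6.57 TPM in ACT, and listed at 0 in both ACT IL21 libraries. Its rise in ACT passed (2.98, adjusted p = 0.00876), as did the test of ACT IL21 against ACT (adjusted p = 0.0158). No fold is given for the latter, in which Csf2 was the 1 gene of the 11 called (median 0.13, against 0.08 over all genes, of which 1.15% fell). Csf2 passed the filter on low values only through the ACT libraries, where it was high. These calls of Csf2 therefore support nothing by themselves. Csf1, which encodes the macrophage growth factor M-CSF, rose in ACT (2.52, adjusted p = 0.0216) and in ACT IL21 (2.72, adjusted p = 0.0176), and Ebi3, a subunit shared by IL-27 and IL-35, rose in ACT (2.31, adjusted p = 0.038). In ACT IL21 against N, 2 rose and none fell (median 0.5, against 0.10 over all genes, of which 3.82% rose). The other was Tgfb3, a TGF-beta gene, at 1.57 and 0.64 TPM in N, 3.39 and 5.1 TPM in ACT, and 16.51 and 19.38 TPM in ACT IL21 (3.2 against N, adjusted p = 0.00551). Each call against N ended without either N library, and that of Csf2 between the ICOS+ pools ended whichever library was dropped (adjusted p up to 0.259).

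Of 14 genes that these cytokines induce in T cells, 1 rose in ACT against N and none fell (median 0.29, against 0.02 over all genes, of which 5.58% were called), a share near that of all genes. Socs2, a feedback inhibitor induced by IL-2, was at 3.73 and 6.2 TPM in N, 33.54 and 23.03 TPM in ACT, and 2.29 and 8.04 TPM in ACT IL21. Its rise in ACT (2.3, adjusted p = 0.0465) ended without N replicate 1 or 2, ACT replicate 1 or 2 or ACT IL21 replicate 2 (adjusted p up to 0.309). By limma none of the 14 was called in ACT IL21 against N (1 at an unadjusted p under 0.05) or against ACT (8 at an unadjusted p under 0.05, median -0.47). Of all 13311 genes tested, 2485 and 1978 had an unadjusted limma p under 0.05 in these comparisons. The median of all genes against ACT was 0.08.

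Of 24 genes near the members, 14 were tested. By limma none was called in ACT against N (3 at an unadjusted p under 0.05), in ACT IL21 against N (2) or between the ICOS+ pools (4). Over all genes 5.58%, 5.09% and 1.95% were called, so that 0 of 14 says little about the neighbours. Rad50, which lies between Il13 and Il5, was at 65.07 to 91.11 TPM in all libraries, and Il5 did not exceed 0.21 TPM. Irf1, the most abundant neighbour and 151 kb from Il4, was at 81.02 to 138.76 TPM. Adad1, which overlaps the end of Il2 on the opposite strand, was listed at 0 in 5 libraries and at 0.38 TPM in ACT IL21 replicate 2. Iltifb, a near-identical copy of Il22 that lies 146 kb from Ifng, was at 1.18 and 1.58 TPM in ACT IL21 and listed at 0 elsewhere, a value that is uncertain between the copies.

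The genes whose levels followed each member most closely were sought among 8349 genes with a mean of at least 5 TPM. The measure was Pearson's r on log2(TPM + 1) over the 6 libraries, which are 3 pairs and share their pools, and it ignores the size of a change. For Il21 they were Cenpa, a centromeric histone gene, Dclre1c, which encodes the nuclease Artemis, and Hivep2, a zinc finger factor gene (each r = 0.998). Dclre1c was at 78.49 and 76.92 TPM in ACT IL21 and at 31.72 to 38.68 TPM in the other libraries. For Il4 they were Acsbg1, an acyl-CoA synthetase gene, Pla2g16, a phospholipase gene, and Itgb2, a leukocyte integrin gene (r = 0.999, 0.998 and 0.997). Itgb2 was at 196.02 and 172.33 TPM in N, 445.35 and 394.54 TPM in ACT, and 297.59 and 300.78 TPM in ACT IL21. For Il10 they were Rnf144a, a ubiquitin ligase gene, Ntng2, a netrin family gene, and Pomp, a proteasome assembly gene (0.997, 0.994 and 0.989). For Ifng they were Kpna3, a nuclear import gene, Trafd1 and Sla, an adaptor gene (0.997, 0.993 and 0.992). Il2, with a mean of 4.05 TPM, was below the level set for this search.

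Markers of several other cells that can make these cytokines were, as summed levels, highest in ACT, like Il4. The 12 natural killer and NKT cell markers summed to 58.1 and 66.6 TPM in N, 1130 and 1020 TPM in ACT, and 218 and 184 TPM in ACT IL21. Of the 10 tested, 7 rose in ACT against N, and 7 fell in ACT IL21 against ACT (medians 4.02 and -2.52, against 0.02 and 0.08 over all genes, of which 4.15% rose and 1.15% fell). Among these, Klre1 passed the filter on low values only through the ACT libraries, so its calls support nothing by themselves. In ACT IL21 against N, 3 of the 10 rose, while Klrd1 and Prf1 fell, and 5 were not called (3.82% rose and 1.26% fell over all genes). Without ACT IL21 replicate 1, no gene of any list was called between the ICOS+ pools, and the falls of Klre1, Klrk1, Zbtb16 and Nkg7 ended whichever library was dropped (adjusted p up to 0.206). Zbtb16, the factor of NKT cells, was at 0 and 0.18 TPM in N, 40.05 and 27.31 TPM in ACT, and 5.91 and 1.7 TPM in ACT IL21. The natural killer cell genes Ncr1 and Klra8 were at or under 1.06 TPM in all libraries. Gamma delta T cell markers summed to 13.8 and 9.79 TPM in N, 900 and 627 TPM in ACT, and 97.5 and 75.6 TPM in ACT IL21. Of 5 tested, 3 were higher in ACT than in N (4.15% of all genes). The same number were lower in ACT IL21 than in ACT (1.15% of all genes). The called genes were Tcrg-C1, Tcrg-C2 and Tcrg-C4, which gave most of each sum. They are similar constant segments, whose values are uncertain between copies. Between the ICOS+ pools, the difference of Tcrg-C4 ranged from -4.73 to -2.75 with single libraries left out. The rest of this list did not follow these segments. Trdv4 was above 0 only in ACT replicate 2 (2.32 TPM) and was not tested. Sox13 and Il23r were tested and not called. Among the ACT libraries, Sox13 was detected in replicate 1 alone (3.97 TPM). Il23r peaked in ACT IL21 (1.67 and 6.14 TPM), whereas ACT reached 1.57 TPM at most. The part of these cells in the levels of Il4 and Ifng was not tested.

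**Figure D5:**
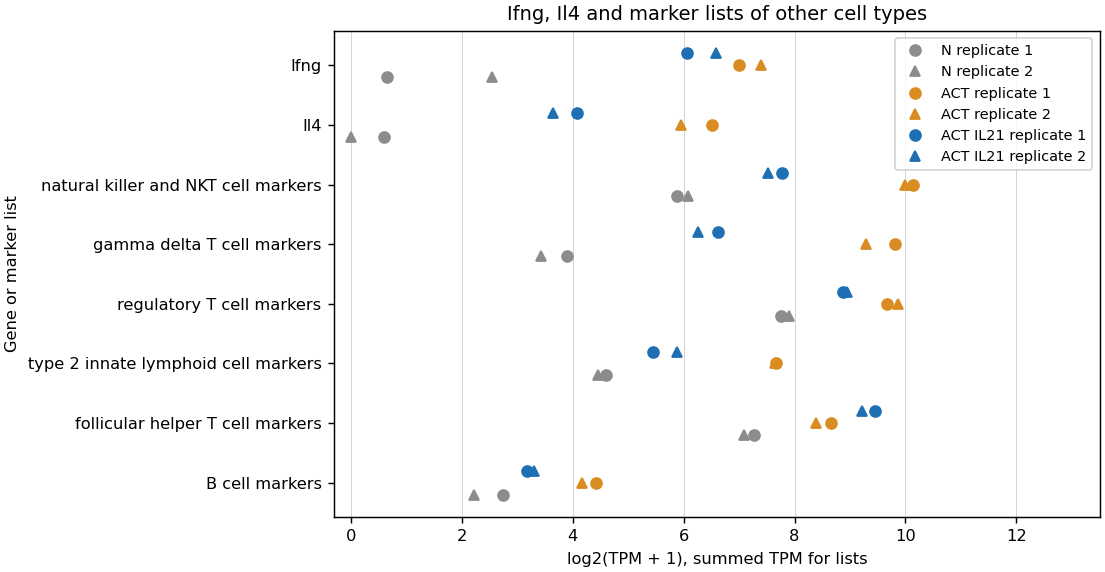
Ifng, Il4 and the summed TPM of marker lists, as log2(TPM + 1), in each library, with circles for replicate 1 and triangles for replicate 2. Like Il4, the natural killer and NKT list is highest in ACT (1130 and 1020 TPM), intermediate in ACT IL21 (218 and 184) and lowest in N (58.1 and 66.6), while the follicular helper list is highest in ACT IL21.

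Regulatory T cell markers, given beside Il10 and Il2ra, summed to 216 and 238 TPM in N, 812 and 937 TPM in ACT, and 468 and 492 TPM in ACT IL21. Of 7, 6 rose in ACT against N, and 4 fell in ACT IL21 against ACT (4.15% and 1.15% over all genes). In ACT IL21 against N, Ikzf2, Ctla4 and Nrp1 rose, while Foxp3, Il2ra and Lrrc32 fell (3.82% rose and 1.26% fell over all genes). Ctla4 alone was at 249.71 and 256.52 TPM in ACT IL21. Foxp3, the lineage factor of regulatory T cells, was at 22.19 and 19.38 TPM in N and 65.43 and 51.87 TPM in ACT. By limma this difference was 1.45 (adjusted p = 0.0367), and 1.28 to 1.61 with single libraries left out. In ACT IL21, Foxp3 was at 1.57 and 2.69 TPM. Follicular helper markers, given beside Il21, summed to 154 and 136 TPM in N and 402 and 333 TPM in ACT. In ACT IL21 they summed to 696 and 591 TPM. Of these 8 genes, 4 rose in ACT IL21 against ACT, as did 0.796% of all genes. The 4 were Cxcr5, Bcl6, Tox2 and Cd200. The limit given above for calls between the ICOS+ pools without ACT IL21 replicate 1 holds for them and for the regulatory list. Type 2 innate lymphoid cell markers, which type 2 and regulatory T cells also express in part, summed to 23.3 and 21 TPM in N. They summed to 201 and 199 TPM in ACT, and 42.8 and 57.6 TPM in ACT IL21. Of 5 tested, 4 rose in ACT against N, as did 4.15% of all genes. The part of these cells in the cytokine levels was not tested either. Basophil and mast cell markers, which could carry Il4 and Il13, summed to 1.16 to 8.36 TPM. Mcpt8 and Fcer1a, which define these cells, were listed at 0 in all libraries. Hdc gave most of the sum in ACT IL21 (6.98 and 4.98 TPM). It was at 0.72 and 0.4 TPM in N and at 3.38 and 0.77 TPM in ACT. Cpa3 was at 1.49 TPM in ACT replicate 2 and listed at 0 elsewhere. Neither of the 2 tested genes of this list, Hdc and Kit, was called in any comparison. B cell markers summed to 3.65 to 20.4 TPM, mostly Cd74, and myeloid and dendritic cell markers to 28.9 to 70.2 TPM, mostly Cst3. Cd74 (2.26, adjusted p = 0.0119) and Cst3 (1.01, adjusted p = 0.0338) rose in ACT against N, and no other call was made among the 4 tested genes of these lists. The call of Cd74 held in 3 of 6 fits that each left out 1 library (adjusted p up to 0.139), and that of Cst3 in 1 (up to 0.263). Pax5 and Cd14 were listed at 0. Cd8b1, the CD8 T cell marker tested, was not called in any comparison.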

How the data were processed

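Per the labels' protocols, Qiagen RNeasy kits were used to extract RNA from the sorted CD4+ pools, and its polyadenylated part was amplified (NuGEN Ovation). The authors deposited gene-level TPM, 1 column per library. Trimmomatic, Bowtie, RSEM and GRCm38 are named without versions in the submitters' processing notes. For annotation release and strand the sources used here give nothing. Reads shared by several genes are divided by RSEM, amplification of little RNA adds noise to low values, and a fixed total lowers all other genes when abundant ones rise. TPM keeps no read depth, so no counting interval is given.

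Of 38355 entries, 139 with a repeated symbol were summed. Genes reaching 1 TPM in 2 or more libraries were tested with limma 3.58.1 (R 4.3.3) on log2(TPM + 1), a single model of all 6 libraries with pool as its term, an intensity trend and two-sided tests (3 residual and 4.841 prior degrees of freedom). The script was tested on simulated data. Il21 entered the fit and the counts of all genes, but its test is not reported. The members, lists and tests were chosen with earlier results of these data known. The lists were other T cell cytokines, receptors, transcription factors, response genes, locus neighbours and cell markers. Named from the first 5 lists were up to 4 called genes with the smallest p per comparison, or the most abundant member where none was called (some genes are not reported here). For each member with a mean of at least 5 TPM, the 3 genes with the highest r were named, leaving out receptor segments and provisional symbols. Il17f, Il5, Rad50, Adad1, Iltifb, Gata3, Il21r, Il2rg, Il17ra and the markers were named after their values were seen. Promoters come from RefSeq (GRCm38.p6), with entries for 6 of 7 members. Alternatives changed the pseudocount, filter, scaling, trend, libraries fitted and replicate block, and left out each library.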

Additional observations from a re-analysis of the deposited data

How the results depend on the processing

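The directions of the 4 tested members held under all 15 alternatives, except that of Il2 between the ICOS+ pools, which did not pass and turned to -0.10 without ACT replicate 1 and to -0.19 without ACT IL21 replicate 2 (up to 0.56 without single libraries). In ACT against N, the calls of Il4 and Ifng passed under all 15 (adjusted p up to 0.00561 and 0.0195), that of Il10 under 13 and that of Il2 under 6. In ACT IL21 against N, Il4 and Ifng passed under 13 each, and Il10 and Il2 under 9 each. The fall of Il4 between the ICOS+ pools passed under 7 (adjusted p from 0.0136 to 0.235). Without a filter on low values, the counts of called genes in ACT against N, ACT IL21 against N and ACT IL21 against ACT were 469, 410 and 124 (743, 677 and 259 as reported), and the counts of called members in the last 2 comparisons were 2 and 0. With a pseudocount of 0.1 TPM, 0 members were called by limma between the ICOS+ pools (1 at an unadjusted p under 0.05). With the libraries of the compared pools alone, 417 genes were called in ACT against N and 92 between the ICOS+ pools. Leaving out single libraries gave 205 to 526, 75 to 728 and 0 to 81 called genes, and 2 to 3, 0 to 4 and 0 to 0 called members, in the same order. The 0 genes came without ACT IL21 replicate 1 (1631 at an unadjusted p under 0.05), and the lone library of a pool is then assumed to vary like the others. Fewer libraries or more genes tested are part of these alternatives, and other causes were not tested. Quantile normalization moved the median of all genes in ACT IL21 against N from 0.10 to -0.05. The replicate numbers mark no stated batch, and deviations of same-numbered libraries correlated at 0.21 (N and ACT), -0.004 (N and ACT IL21) and 0.0008 (ACT and ACT IL21) across genes. With the replicate block, 784, 732 and 284 genes and 4, 4 and 1 members were called. Precision is limited by 2 libraries a pool and by unknown depth, above all for Il2 and Il10.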
